A study of Mus musculus with 20 samples.

Results

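The 6 genes described here encode cytochrome P450 enzymes of the Cyp4a family and lie together on mouse chromosome 4. They are Cyp4a10, Cyp4a14, Cyp4a31, Cyp4a32, Cyp4a12a and Cyp4a12b, 6 of the 21900 protein-coding genes in the RefSeq table used. They were listed by name, and their regions were the consensus intervals of each histone mark whose middle lay in the gene body or within 10 kb of it in mm10. That rule gave 20 of 65776 H3K27ac intervals, 28 of 103014 H3K4me1 intervals and 11 of 46568 H3K9ac intervals.

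Chromatin immunoprecipitation with sequencing (ChIP-seq) was carried out on whole liver of male C57BL/6 mice aged 9 weeks. All mice had been fasted for 24 hours, so no group here was fed. There were 4 genotypes. Wild type (WT) mice carried neither deletion, Cpt2 KO mice lacked Cpt2 in liver (Cpt2 L-/-), Ppara KO mice lacked Ppara (Ppara -/-), and DKO mice carried both (Cpt2 L-/-; Ppara -/-). H3K27ac and H3K4me1 were each profiled in 2 libraries of every genotype, and H3K9ac in 1 WT and 1 Cpt2 KO library. WT and Cpt2 KO livers are called Ppara-intact below, and Ppara KO and DKO livers Ppara-null. The labels do not name the Cre line behind the liver deletion, nor say whether libraries of different marks came from the same livers. They number the libraries of a genotype 1 and 2 without saying how the livers were obtained, so a p-value here measures the spread between these libraries, which may be partly technical.

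Cyp4a enzymes hydroxylate fatty acids at the terminal, or omega, carbon, in the endoplasmic reticulum. The hydroxyl group is then oxidised, and the dicarboxylic acid that results is shortened in peroxisomes. Cyp4a10 and Cyp4a14 are textbook targets of PPARα, the nuclear receptor encoded by Ppara, which binds fatty acids and is active in the fasted liver, whereas Cyp4a12a is better known for its male-biased expression. Cpt2 encodes the carnitine palmitoyltransferase that mitochondria need to oxidise long-chain fatty acids. H3K27ac marks active enhancers and promoters, H3K4me1 marks enhancers whether active or not, and H3K9ac marks active promoters.

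Each library's value at an interval is the highest fold enrichment among its overlapping peaks. This fold is a ratio given by the authors' peak caller, of the signal at a peak's summit over its estimated background. An interval with no peak is given as no call, which means that nothing there passed the caller and is not a fold of 0. The 8 H3K27ac libraries held 44454 to 48929 peaks with median folds of 6.69 to 8.21, and the 8 H3K4me1 libraries 61189 to 72151 peaks with medians of 5.83 to 6.13. Read totals are not given in the files, so the depth behind a fold is unknown. All 6 hepatocyte markers examined (Alb, Apoa1, Ttr, Serpina1a, Tat and Cps1) had an H3K27ac interval called in all 8 libraries, while of the 3 cholangiocyte markers Krt19 and Epcam were called in none and Sox9 in all but the Cpt2 KO libraries. Of 5 H3K27ac intervals near Cpt2, 1 was called in the 4 Cpt2-intact libraries and in no Cpt2-null library (0.826% of all intervals). Of 7 H3K4me1 intervals there, 0 were (0.143%). Of 26 H3K27ac intervals near Ppara, 1 was called in the 4 Ppara-intact libraries alone (0.725%) and 1 in the 4 Ppara-null libraries alone (0.632%). Among 40 H3K4me1 intervals near Ppara, 2 were called in the 4 Ppara-intact libraries alone (0.604%) and 0 in the Ppara-null libraries alone (0.385%). Counts this small are not read as a check of the genotypes. In whole liver, fewer cells carrying a mark and less of it per cell cannot be told apart.

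Of the 6 members, the RefSeq promoter table holds Cyp4a32. Its upstream sequence is shown because the H3K27ac interval that spans this start site was called in every Ppara-intact library and in no Ppara-null library. Whether a peak of each library lay over the start site itself was not worked out. The 250 bases before the start site lie at chr4:115600688-115600937 on the plus strand of GRCm38.p6, the assembly also called mm10, and are printed 5′ to 3′.
Cyp4a32 promoter: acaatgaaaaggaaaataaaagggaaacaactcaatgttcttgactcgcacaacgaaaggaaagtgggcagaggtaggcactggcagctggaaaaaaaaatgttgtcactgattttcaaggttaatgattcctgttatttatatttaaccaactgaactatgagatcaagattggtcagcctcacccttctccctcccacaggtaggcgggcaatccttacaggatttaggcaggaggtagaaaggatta
PPARα with its partner RXR is known to bind a direct repeat of the half-site AGGTCA, spaced by 1 base. Neither the repeat, exact or with up to 2 mismatches, nor the half-site occurred in these 250 bases on either strand, so no letter is in capitals. Over 32851 promoters cut to the same length, 0.0335% held the exact repeat, 3.24% the repeat with up to 2 mismatches and 14% the half-site, which is contained in the repeat. A missing match describes only the letters of this window.

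At Cyp4a14, Cyp4a10, Cyp4a31 and Cyp4a32, H3K27ac peaks covered more bases in every Ppara-intact library than in any Ppara-null library. Of the 20 H3K27ac intervals, the WT libraries called 8 and 9, the Cpt2 KO libraries 17 and 16, the Ppara KO libraries 2 and 2, and the DKO libraries 4 and 3. Every Ppara-intact library thus called more of them than any Ppara-null library. Whole libraries held 46140 and 45151 peaks for WT and 46445 and 47361 for Cpt2 KO. They held 46543 and 44454 for Ppara KO, and 48929 and 48124 for DKO. The share of all H3K27ac intervals called by each library was not worked out. The 20 include 11 called in Cpt2 KO libraries alone, so the list itself leans on Cpt2 KO calls. In 7 of the 20 intervals all 4 Ppara-null libraries lay below all 4 Ppara-intact libraries, with no call ranked lowest, against 2.25% of all H3K27ac intervals, and in none did they lie above (2.31%). Cyp4a14 and Cyp4a10 held 1 each of those 7, Cyp4a31 held 2 and Cyp4a32 held 3. The map of peaks along the gene group shows the same contrast library by library.

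**Figure D1:**
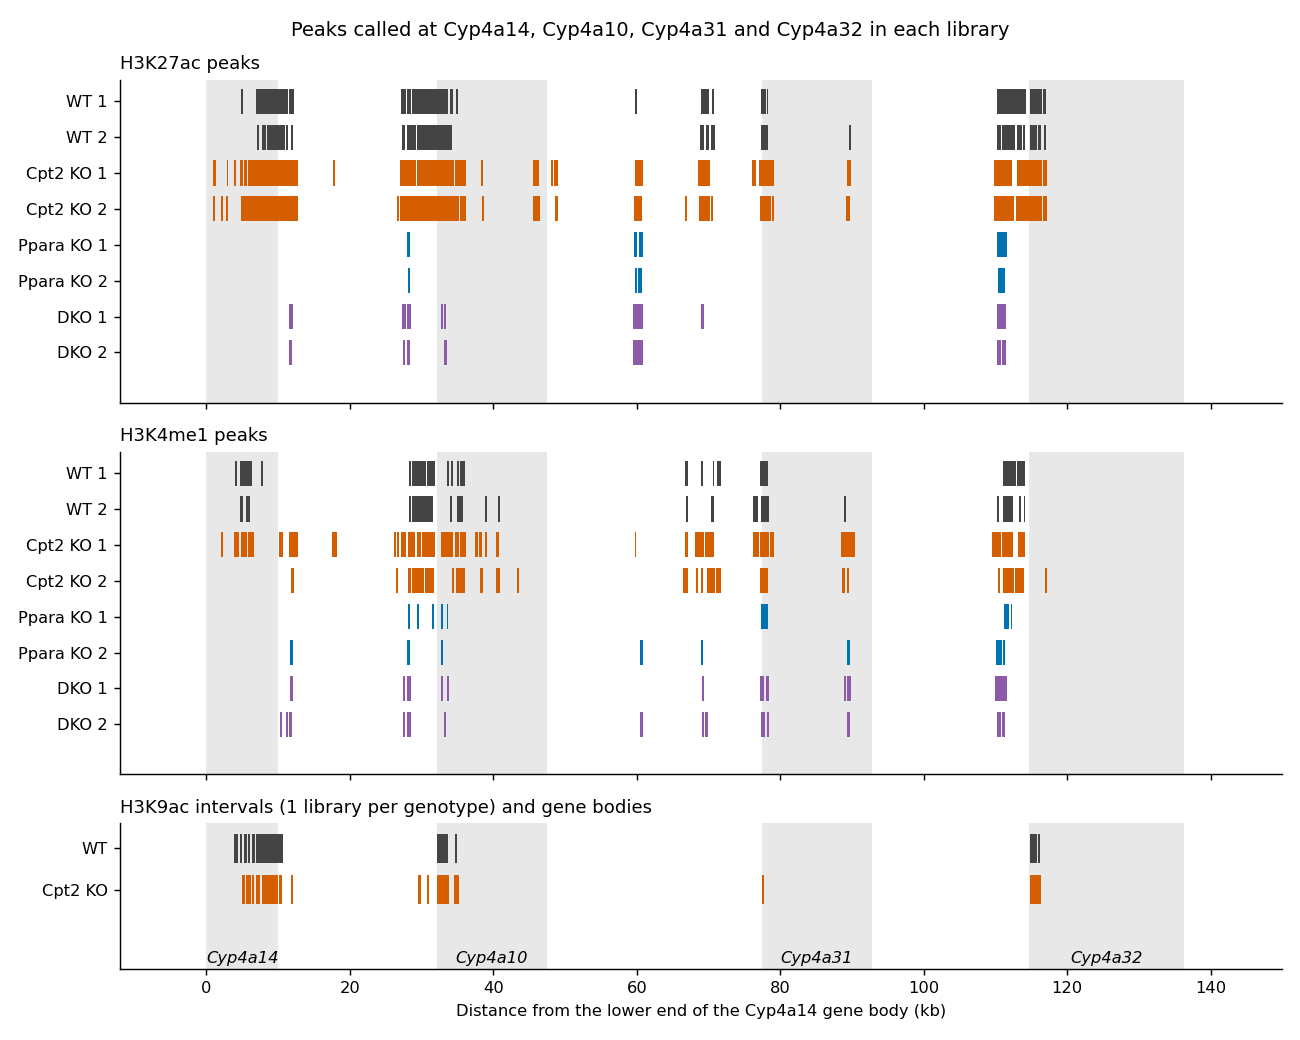
Peaks called in each library along Cyp4a14, Cyp4a10, Cyp4a31 and Cyp4a32, with distance from the lower end of the Cyp4a14 gene body (kb) on the horizontal axis and 1 row per library, where grey bands are gene bodies and bars are peaks coloured by genotype. H3K27ac bars fill the regions before Cyp4a10 and Cyp4a32 in WT and Cpt2 KO rows and shrink to narrow bars in Ppara KO and DKO rows, while H3K9ac has 1 WT and 1 Cpt2 KO row.

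Cyp4a32, a close paralog of Cyp4a10, carried the highest H3K27ac fold of the family. Its strongest interval (chr4:115595938-115598970) has its middle 3473 bases below the lower end of the gene body, on the upstream side. Its folds were 18.5 and 19.4 for WT, 48.3 and 37.7 for Cpt2 KO, 10.0 and 6.69 for Ppara KO, and 8.13 and 8.52 for DKO. All 4 Ppara-intact libraries were above all 4 Ppara-null libraries, and both Cpt2 KO libraries were above both WT libraries. The Ppara-null libraries differed by −1.81 in log2 fold (SE 0.18, limma adjusted p = 0.000239), the 5th lowest of the 18281 intervals called in all 8 libraries. In Cpt2 KO replicate 1 the peak ranked 28th of its library by fold, with 0.0581% of peaks higher.

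The start site of Cyp4a32 itself fell in the next interval (chr4:115598979-115602649), which runs from −1959 to 1711 bases relative to the RefSeq start site at 115600938. Its folds were 8.0 and 8.22 for WT and 14.1 and 10.3 for Cpt2 KO, with no call in any Ppara KO or DKO library. Another interval inside the gene body (chr4:115602774-115603405) had folds of 4.80 and 5.40 for WT and 17.0 and 10.3 for Cpt2 KO, and again no call in the 4 Ppara-null libraries. Of the 3 H3K27ac intervals at Cyp4a32, the upstream one was thus the only one still called without Ppara.

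Cyp4a10, one of the classic PPARα-induced hydroxylases, had the widest H3K27ac interval of the family, 9247 bases at chr4:115513203-115522449, wider than all but 0.651% of H3K27ac intervals (median width 619 bases). It spans the lower end of the gene body, with its middle 461 bases below it. Its folds were 12.8 and 19.0 for WT, 29.5 and 19.8 for Cpt2 KO, 6.17 and 5.50 for Ppara KO, and 7.0 and 6.43 for DKO. The Ppara-intact and Ppara-null libraries did not overlap, whereas WT replicate 2 nearly reached Cpt2 KO replicate 2. The Ppara-null libraries differed by −1.67 in log2 fold (SE 0.19, limma adjusted p = 0.000414), the 9th lowest of 18281. These 2 intervals, at Cyp4a32 and Cyp4a10, were the only member intervals called in all 8 libraries (2 of 20, against 27.8% of all intervals), and both were lower in Ppara-null livers, as were 4.15% of the intervals tested.

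At Cyp4a10, peaks also covered fewer bases in Ppara-null than in Ppara-intact libraries. Stretches without a called peak add no bases, whereas a fold is taken from called peaks only. The size of the drop is therefore not compared between bases and fold. Within 10 kb of the gene, peaks covered 6835 and 6430 bases in WT, 10855 and 11183 for Cpt2 KO, 433 and 255 for Ppara KO, and 1748 and 928 for DKO. The 4 Ppara-null libraries covered the least. Relative to the lower end of the gene body, the summit of the highest peak in the broad interval lay between −3996 and −3805 bases in both Ppara KO libraries and DKO replicate 1, and at 1216 in DKO replicate 2. It lay at 249 and −3765 in the WT and at 225 and −4524 in the Cpt2 KO libraries, so summit places overlapped between the Ppara states.

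Cyp4a14, the other classic PPARα-induced member, had 1 broad interval of 8056 bases (chr4:115490936-115498991), which covers the upper part of its gene body and runs past its upper end. Its folds were 9.25 and 11.6 for WT, 30.6 and 26.7 for Cpt2 KO and 5.32 and 5.51 for DKO, with no call in either Ppara KO library. Both Cpt2 KO libraries stood above both WT libraries (ratio of means 2.75), and the DKO libraries below them. The place of the highest peak differed too. Its summit lay 9566 to 9747 bases above the lower end of the gene body in the 4 Ppara-intact libraries, just inside a gene of 9959 bases, and 11700 and 11777 bases above it, outside the gene, in the DKO libraries. The gene table used gives no strand, so neither place is called a promoter here.

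Cyp4a31, another member close in sequence to Cyp4a10, had the highest ratio of Cpt2 KO to WT folds among the 7 intervals called in all Ppara-intact libraries. An interval with its middle 8045 bases below the gene body (chr4:115554710-115556453) had folds of 7.83 and 10.3 for WT, 45.4 and 40.4 for Cpt2 KO and 6.00 in DKO replicate 1, with no call in DKO replicate 2 or in Ppara KO. The ratio of the Cpt2 KO mean to the WT mean was 4.72. At the lower end of the gene body (chr4:115563294-115565334) folds were 10.0 and 9.85 for WT and 16.0 and 10.1 for Cpt2 KO, with no call in the 4 Ppara-null libraries. This interval and the 2 at Cyp4a32 named above were the 3 of 20 called in all 4 Ppara-intact libraries and in no Ppara-null library, against 0.725% of all H3K27ac intervals, and no member interval showed the reverse (0.632%).

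**Figure D2:**
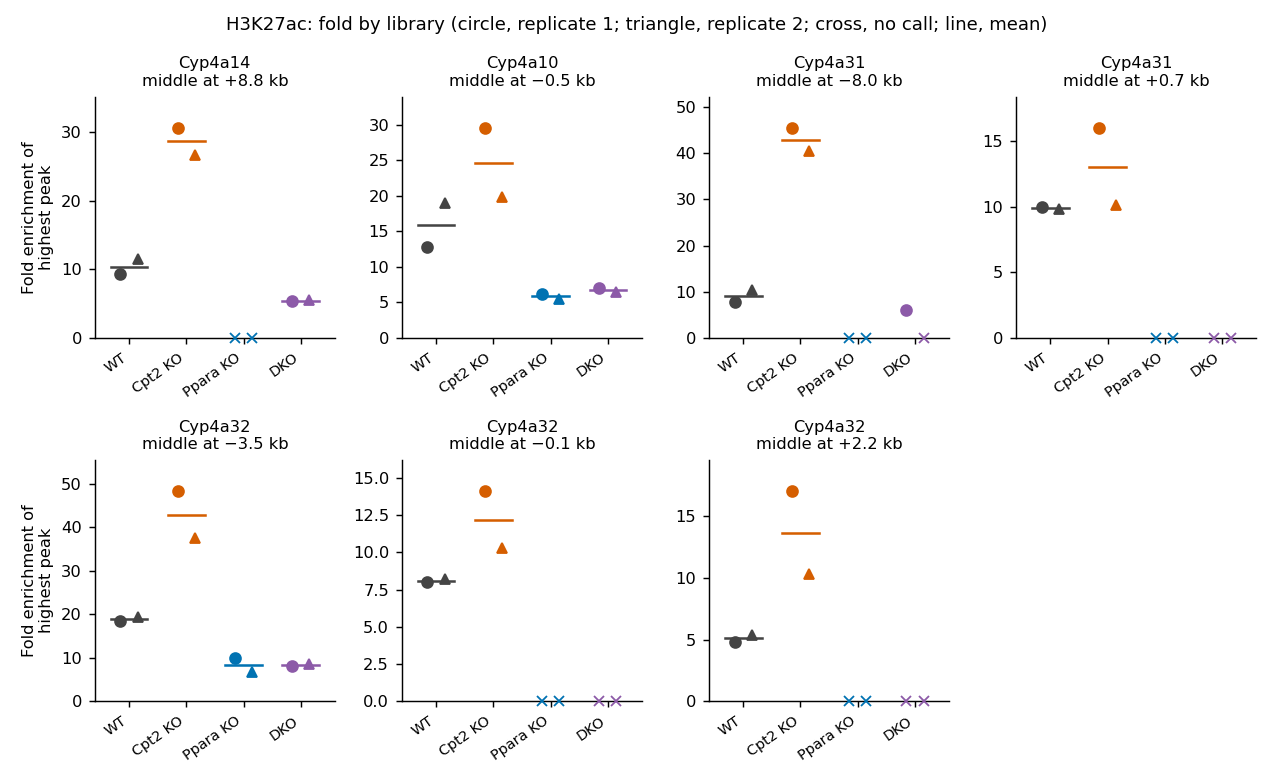
H3K27ac fold enrichment of the highest peak (linear axis from 0) in each library at the 7 member intervals called in at least 4 libraries, by genotype; circles are replicate 1, triangles replicate 2, lines the mean of 2, and crosses at 0 mark no call. Panel titles give the middle of the interval relative to the lower end of the gene body. Cpt2 KO points lie highest in all 7 panels, from 10.1 to 48.3.

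Cyp4a10, Cyp4a31 and Cyp4a32 are close copies of each other, as are Cyp4a12a and Cyp4a12b. How reads matching several places were treated is not given in the sources used here. A peak at one copy may include reads from another, or be missing if such reads were dropped. Differences between copies are therefore uncertain, and no call at a copy need not mean that the mark was absent.

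Cyp4a12a and Cyp4a12b had no H3K27ac and no H3K9ac interval in any library. A single H3K4me1 interval, inside Cyp4a12a (chr4:115325966-115326292), was called with a fold of 6.54 in Cpt2 KO replicate 1 and in no other library. Around Cyp4a12b a stretch of 206 kb held no H3K27ac interval, and stretches of 162 kb and 394 kb held no H3K4me1 and no H3K9ac interval. Intervals on chromosome 4 followed each other every 35.4, 22.5 and 44.9 kb on average for H3K27ac, H3K4me1 and H3K9ac. Whether reads could be placed within these stretches was not tested, so they are not read as lack of the marks. At a distance of 19144 bases from Cyp4a12a, and so outside the 10 kb limit, an H3K27ac interval (chr4:115279037-115280766) had folds of 12.6 and 18.3 for WT, 5.20 and 5.40 for Cpt2 KO, 9.25 and 6.00 for Ppara KO, and no call in DKO.

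The 10 kb limit also leaves out intervals between the other members. One 10597 bases from Cyp4a31 (H3K4me1, chr4:115552686-115553374) had folds of 6.00 and 6.25 for WT and 7.20 and 8.25 for Cpt2 KO, with no call in the Ppara-null libraries. Another, 12720 bases from Cyp4a10 (H3K27ac, chr4:115545689-115547049), did not follow Ppara. It had folds of 12.8 and 10.2 for Cpt2 KO and 13.3 and 13.7 for DKO, against 7.55 and 7.25 for Ppara KO and 6.25 with 1 no call in WT. The nearest inside the limit, at Cyp4a31 (H3K4me1, chr4:115554375-115555601, 8639 bases from it), had folds of 4.0 in WT replicate 1, 16.7 and 6.62 for Cpt2 KO, 6.17 in Ppara KO replicate 2, and 6.14 and 5.29 for DKO, and no call in the other two libraries.

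Livers lacking Ppara alone had less H3K27ac than WT at the members. Ppara KO differed from WT at Cyp4a10 by −1.41 in log2 fold (SE 0.27, limma adjusted p = 0.0135) and at Cyp4a32 by −1.20 (SE 0.25, limma adjusted p = 0.0199), that is at 2 of 2 intervals tested against a background of 3.59% lower and 2.83% higher. A further 6 of the 20 intervals were called in both WT and in neither Ppara KO library (5.41% of all intervals): 1 at Cyp4a14, 3 at Cyp4a31 and 2 at Cyp4a32. None went the other way (5.01%). Both calls depended on single libraries and on the setting. Without WT replicate 2 neither passed, with limma adjusted p of 0.103 at Cyp4a10 and 0.0926 at Cyp4a32. Cyp4a10 also missed without Ppara KO replicate 1 (0.0579), and both missed without Ppara KO replicate 2 (0.0854 and 0.126). Neither passed with each library's smallest peak width as a covariate (limma adjusted p = 0.11 at Cyp4a10 and 0.14 at Cyp4a32) or with the mean fold of overlapping peaks (0.137 and 0.08), where the Cyp4a10 difference was −0.74.

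In livers lacking Cpt2 the Ppara difference was larger in size. DKO differed from Cpt2 KO by −2.43 in log2 fold at Cyp4a32 (SE 0.25, limma adjusted p = 0.000538), 5.40-fold lower and the 2nd lowest of 18281 intervals, and by −1.92 at Cyp4a10 (SE 0.27, limma adjusted p = 0.00263), against 1.64% of intervals lower and 0.596% higher. Both calls held when any 1 library was left out. In addition 9 of 20 intervals were called in both Cpt2 KO and in neither DKO library (4.11% of all intervals), and none the reverse (4.57%). The test of the difference between the pair of Ppara effects, the interaction, gave −1.24 at Cyp4a32 (SE 0.36, limma adjusted p = 0.152) and −0.51 at Cyp4a10 (SE 0.38, limma adjusted p = 0.546). So a larger Ppara effect without Cpt2 was not shown at this number of libraries. Of 18281 intervals, 1 passed this limma test (0.00547%). At an unadjusted p under 0.05 there were 15.2%, Cyp4a32 among them.

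Loss of Cpt2 with Ppara present went with more H3K27ac at the members. The smallest H3K27ac peak width was 198 to 210 bases in Cpt2-intact (WT and Ppara KO) libraries. It was 217 to 223 in Cpt2-null (Cpt2 KO and DKO) libraries. Cpt2 state and this library property therefore cannot be told apart here. At Cyp4a32 Cpt2 KO was above WT by 0.95 in log2 fold (SE 0.25, limma adjusted p = 0.0276), 1 of 2 intervals tested, against 5.82% of all intervals higher and 7.69% lower. At Cyp4a10 the difference was 0.41 (SE 0.27, limma adjusted p = 0.327). The Cyp4a32 call did not pass without WT replicate 2 (limma adjusted p = 0.128), without Cpt2 KO replicate 1 (0.204), without Cpt2 KO replicate 2 (0.0787) or with the smallest peak width as a covariate (0.644). In all 7 member intervals called in the 4 Ppara-intact libraries, both Cpt2 KO folds were above both WT folds, as in 38.5% of all such intervals (17.7% the reverse), and in 4 of the 7 the Cpt2 KO mean was at least 2 times the WT mean (6.87%). These ratios are of folds before centring, and the median Cpt2 KO fold was itself above WT by 0.19 on the log2 scale. A further 5 of 20 intervals, at Cyp4a14 and Cyp4a10, were called in both Cpt2 KO and in neither WT library (9.72%), with none the reverse (6.64%).

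Most of the members' H3K27ac intervals were called in Cpt2 KO alone. Of the 20 intervals, 11 were called in 1 or both Cpt2 KO libraries and in no other library, with folds of 3.71 to 9.07, against 6.12% of all H3K27ac intervals. There were 5 at Cyp4a14, 5 at Cyp4a10 and 1 at Cyp4a31. Of these, 3 at Cyp4a14, 2 at Cyp4a10 and the 1 at Cyp4a31 were called in a single library, so they were not shared by both Cpt2 KO replicates. At some marker lists of other liver cells, summed H3K27ac folds also differed by Cpt2 state. An uncalled marker added 0 to these sums, and the folds were not centred. Before centring, the median difference of Cpt2-null from Cpt2-intact libraries over all fitted intervals was itself 0.252 on the log2 scale. Summed over the 3 stellate markers (Lrat, Reln and Dcn) they were 6.57 to 10.0 in Cpt2-intact and 18.3 to 30.6 in Cpt2-null libraries, with 1 marker called in all 8. Of the 3, 2 had no call in WT replicate 1 and both Ppara KO libraries. In WT replicate 2 and DKO replicate 1, 1 had no call. These sums thus move with how many markers were called as well as with fold. Over the 4 endothelial markers (Stab2, Lyve1, Clec4g and Kdr), all called in all 8, they were 51.8 to 58.6 and 63.8 to 77.5. Over the 4 macrophage and Kupffer markers (Clec4f, Adgre1, Cd68 and Timd4), of which 2 were called in all 8, they were 27.8 to 36.0 and 36.9 to 65.9, also without overlap. The part of other liver cells in the Cpt2 KO values at the members was not tested. Between the Ppara states, the sums overlapped for each of the 6 marker lists (hepatocyte, macrophage, endothelial, stellate, cholangiocyte and lymphocyte).

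Without Ppara, loss of Cpt2 made no difference that passed. DKO differed from Ppara KO by −0.29 at Cyp4a32 (SE 0.25, limma adjusted p = 0.63) and by −0.11 at Cyp4a10 (SE 0.27, limma adjusted p = 0.882) on the log2 scale. Neither member interval passed, and 1 of 18281 intervals did (0.00547%), with 14.1% and 0 member intervals at an unadjusted p under 0.05. The broad Cyp4a14 interval was the 1 of 20 called in both DKO and neither Ppara KO library (6.88%), with none the reverse (2.63%). Over both Ppara states together, Cpt2-null livers differed from Cpt2-intact livers by 0.33 at Cyp4a32 (SE 0.18, limma adjusted p = 0.233) and 0.15 at Cyp4a10 (SE 0.19, limma adjusted p = 0.628), so neither passed, against 4.90% of intervals higher and 7.38% lower (30.1% at an unadjusted p under 0.05). No member interval separated the Cpt2 states in either direction (background 1.83% lower, 10.1% higher), and none was called in all 4 libraries of one Cpt2 state alone (0.826% in Cpt2-intact alone, 1.95% in Cpt2-null alone). DKO was below WT at both Cyp4a32 (−1.49, SE 0.25, limma adjusted p = 0.00278) and Cyp4a10 (−1.52, SE 0.27, limma adjusted p = 0.00326), as were 11.5% of all intervals, with 8.62% higher. With each library's smallest peak width as a covariate neither passed, at −1.05 for Cyp4a32 (limma adjusted p = 0.639) and −0.67 for Cyp4a10 (limma adjusted p = 0.772). In addition 4 of 20 were called in both WT and neither DKO library (8.0%), and none the reverse (12.6%). The comparisons share libraries and are not independent of each other.

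Summed over the family, peaks covered 20476 and 18311 bases in WT, 31112 and 31293 for Cpt2 KO, 1900 and 1251 for Ppara KO, and 4037 and 2345 for DKO for H3K27ac. For H3K4me1 the sums were 12102 and 10597 for WT, 25030 and 13977 for Cpt2 KO, 3149 and 2977 for Ppara KO, and 5605 and 4830 for DKO. In both marks every Ppara-null library was below every Ppara-intact library. The means were 2383 ± 1190.5 against 25298 ± 6875 bases for H3K27ac and 4140 ± 1285 against 15427 ± 6550 for H3K4me1 (SD, n = 4 each). A two-sided exact permutation test gave p = 0.0286 for each mark, the smallest that 70 divisions of 8 libraries allow, and 0.0571 after Benjamini-Hochberg adjustment over 4 tests, which does not pass. For Cpt2 state the exact permutation p was 0.514 for H3K27ac and 0.4 for H3K4me1. The sums move with how much was called in each library, which was 42.0 to 47.8 Mb for H3K27ac and 38.8 to 53.5 Mb for H3K4me1. As a share of it, members took 0.0389% to 0.0738% of H3K27ac bases in Ppara-intact and 0.00279% to 0.00961% in Ppara-null libraries.

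**Figure D3:**
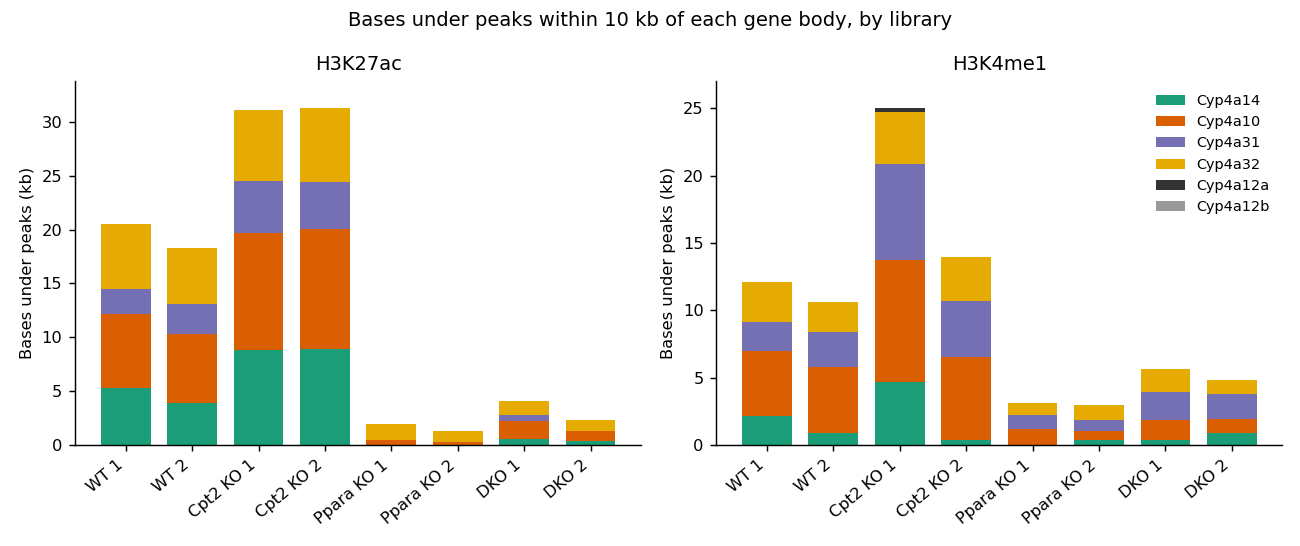
Bases under peaks (kb, stacked bars from 0) within 10 kb of each member's gene body, by library, for H3K27ac (left) and H3K4me1 (right); colours are genes. The 4 Ppara-null bars reach at most 4037 bases for H3K27ac and 5605 for H3K4me1, below all 4 Ppara-intact bars, and Cpt2 KO replicate 1 stands above replicate 2 for H3K4me1.

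H3K4me1 was also lower in Ppara-null libraries at some member intervals and not at others, with smaller differences than H3K27ac, none of which passed. Of 28 H3K4me1 intervals, the WT libraries called 11 and 11, the Cpt2 KO libraries 23 and 15, the Ppara KO libraries 4 and 6, and the DKO libraries 8 and 11. DKO replicate 2 therefore equalled both WT libraries. Whole libraries held 66862 and 69158 peaks for WT and 62998 and 72151 for Cpt2 KO. They held 69790 and 61189 for Ppara KO, and 62452 and 66576 for DKO. The share of all H3K4me1 intervals called by each library was not worked out, and 9 of the 28 were called in Cpt2 KO alone. In 5 of 28 intervals all Ppara-null libraries lay below all Ppara-intact libraries (1.77% of all H3K4me1 intervals), and in none above (1.57%). The 1 interval called in all 4 Ppara-intact libraries and in no Ppara-null library (0.604% of all, with none of the reverse at 0.385%) lay inside Cyp4a10 (chr4:115520891-115522317), with folds of 6.51 and 6.57 for WT and 7.37 and 4.38 for Cpt2 KO.

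Below the lower end of Cyp4a10 (chr4:115514142-115518049), H3K4me1 folds were 11.2 and 11.2 for WT, 13 and 12.2 for Cpt2 KO, 5.31 and 6.00 for Ppara KO, and 9.14 and 7.0 for DKO. Upstream of Cyp4a32 (chr4:115595716-115600376) they were 10.6 and 13 for WT, 19.2 and 13.4 for Cpt2 KO, 6.00 and 7.41 for Ppara KO, and 9.85 and 8.49 for DKO. In both intervals the Ppara states did not overlap, and Ppara KO was the lowest genotype. The Ppara-null libraries differed by −0.82 on the log2 scale at both (SE 0.19 and 0.20, limma adjusted p = 0.0928 and 0.101), the 123rd and 125th lowest of 19526 intervals. Without Cpt2 KO replicate 1 the Cyp4a10 interval passed, at −0.80 (limma adjusted p = 0.0326).

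The remaining H3K4me1 interval called in all 8 libraries, inside Cyp4a10 (chr4:115518842-115520736), did not separate the genotypes. Its folds were 6.20 and 4.81 for WT, 7.17 and 3.57 for Cpt2 KO, 4.67 and 5.29 for Ppara KO, and 6.45 and 3.80 for DKO, a Ppara difference of −0.09 (SE 0.25, limma adjusted p = 0.909). With 3 of 28 intervals called in all 8 libraries (19.0% of all), none passed for the Ppara contrast in limma and 2 had an unadjusted p under 0.05. Of all intervals 0.128% passed and 13.9% had such a p. None passed for the interaction, for Cpt2 state or for any pair of genotypes in limma, where 0.133% of all intervals passed for DKO against WT and 0.00% for the others. At an unadjusted p under 0.05 there was 1 member interval for Cpt2 state, 2 for Ppara KO against WT, none for the interaction, and 2 between DKO and Cpt2 KO. The shares of all intervals at that level were 2.90% for the interaction and 9.81% for Cpt2 state. Against WT they were 8.44% (Ppara KO), 7.69% (Cpt2 KO) and 19.4% (DKO), and for DKO they were 7.76% against Cpt2 KO and 4.03% against Ppara KO. No member interval separated the Cpt2 states (0.810% lower, 0.785% higher) or was called in all 4 libraries of one Cpt2 state alone (0.143% and 0.141%). Between pairs, 3 of 28 intervals were called in both Cpt2 KO and neither WT library (2.87%), 3 in both WT and neither Ppara KO library (4.89%), and 4 in both Cpt2 KO and neither DKO library (2.87%). None was called in both WT and neither Cpt2 KO library (3.64%), in both Ppara KO and neither WT library (3.50%), in both DKO and neither Cpt2 KO library (3.63%), or in both Ppara KO and neither DKO library (1.60%). Another 2 were called in both WT and neither DKO library (10.6%), 2 in both DKO and neither WT library (10.7%), and 1 in both DKO and neither Ppara KO library (2.89%). Of the 6 intervals called in all Ppara-intact libraries, both Cpt2 KO folds were above both WT folds in 3 (17.3%), below in none (19.0%), and at least 2 times as high on average in none (0.505%). Cpt2 KO alone called 9 of the 28 (9.60%). Of these, chr4:115512383-115513010 and chr4:115524254-115524698, at Cyp4a10, were called in both Cpt2 KO libraries, and the others in a single library.

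**Figure D4:**
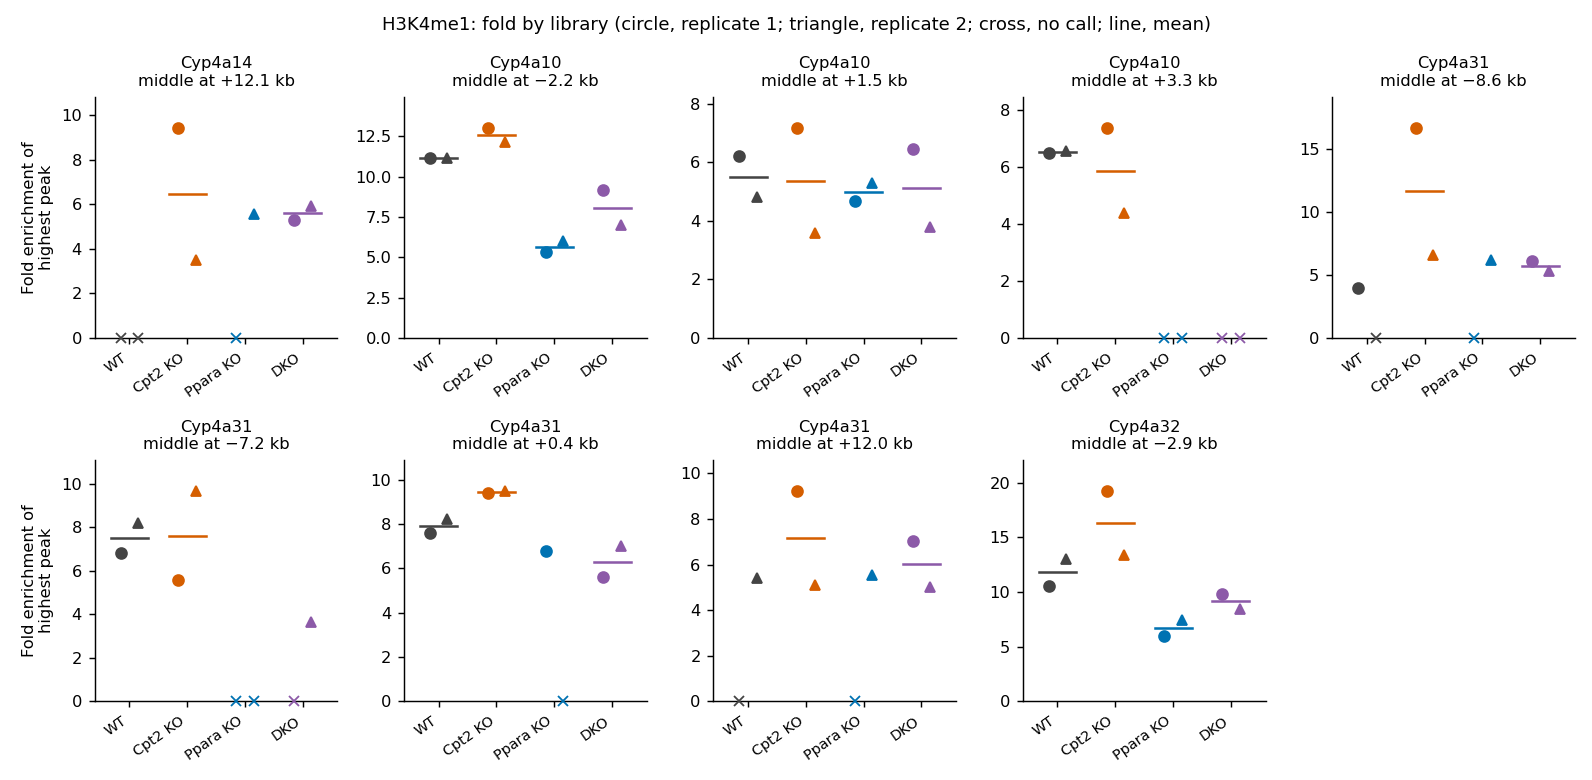
H3K4me1 fold enrichment of the highest peak (linear axis from 0) in each library at the 9 member intervals called in at least 4 libraries, by genotype; circles are replicate 1, triangles replicate 2, lines the mean of 2, and crosses at 0 mark no call. Ppara KO lies lowest, at 5.31 to 7.41, in the Cyp4a32 panel and the upstream Cyp4a10 panel, and the other panels mix genotypes or lack calls.

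Overlap between the marks at the members was near, below or above that of all intervals, depending on the pair of marks. Of the 20 H3K27ac intervals 15 overlapped an H3K4me1 interval (75%, against 75.1% of all H3K27ac intervals), and 5 overlapped an H3K9ac interval (25%, against 39.6%). Of the 28 H3K4me1 intervals 22 overlapped an H3K27ac interval (78.6%, against 51.8% of all H3K4me1 intervals), and 9 overlapped an H3K9ac interval (32.1%, against 31.9%). All 11 H3K9ac intervals lay over an H3K27ac interval (73.4% of all H3K9ac intervals did so). No test was made of these shares.

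H3K9ac, available for WT and Cpt2 KO with 1 library each and without enrichment values, lay at Cyp4a14, Cyp4a10, Cyp4a32 and, in Cpt2 KO, Cyp4a31. Its longest interval was over Cyp4a14 (chr4:115493063-115496822), 3760 bases covered in WT and 3261 in Cpt2 KO. At Cyp4a10 an interval at the lower end of the gene body (chr4:115518287-115520013) had 1477 bases covered in WT and 1727 in Cpt2 KO. At Cyp4a32 an interval beginning 63 bases past the start site (chr4:115601001-115602600) had 1214 and 1577. The 297 bases at Cyp4a31 (chr4:115563645-115563941) were called in Cpt2 KO and not in WT. Of the 11 intervals 6 were called in both libraries (55.2% of all H3K9ac intervals), 1 in WT alone (20.8%) and 4 in Cpt2 KO alone (23.9%). Summed over the members the bases were 8801 in WT and 9836 in Cpt2 KO. With 1 library a genotype there is no test, and no H3K9ac library lacked Ppara.

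The rest of the omega-oxidation pathway was taken from lists drawn up by role. Each gene was given by its strongest interval called in all 8 libraries, whereas the shares over all intervals count every interval. Among 14 other Cyp4 genes, 9 had an H3K27ac interval called in all 8 libraries (8 distinct intervals, since Cyp4f15 and Cyp4f40 share 1). Of these, 1 was lower in Ppara-null livers, Cyp4v3, at −0.55 on the log2 scale (SE 0.16, limma adjusted p = 0.0498), and none higher. The electron donors Por, Cyb5a and Cyb5r3, which pass electrons to microsomal P450 and desaturase enzymes, gave 1 of 3 higher and none lower. Of 5 alcohol and aldehyde dehydrogenases that can oxidise the hydroxyl group, 1 was lower, Aldh3a2, a fatty aldehyde dehydrogenase, at −0.58 (SE 0.15, limma adjusted p = 0.0317). The medians of these 3 groups were −0.00, 0.29 and −0.24 on the log2 scale, beside −0.01 over all 18281 intervals. Of all intervals 4.15% were lower and 3.19% higher, and 1 call in a list this small is not read as a change of that list.

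Genes that activate the dicarboxylic acids and shorten them in peroxisomes were lower more often than not. Of 9, 5 were lower in Ppara-null livers and 1 higher, with a median log2 difference of −0.53, against 4.15% of all intervals lower and 3.19% higher. Hsd17b4, the D-bifunctional enzyme of peroxisomal beta-oxidation, had H3K27ac folds of 25.5 and 28.8 for WT, 46.3 and 42.1 for Cpt2 KO, 10.8 and 14.0 for Ppara KO, and 13.5 and 11.2 for DKO. Its Ppara difference was −1.52 (SE 0.14, limma adjusted p = 0.00021). Abcd3, a peroxisomal fatty acid transporter, differed by −0.88 (SE 0.10, limma adjusted p = 0.000414), and Slc27a2, a very long chain acyl-CoA synthetase, by −0.83 (SE 0.15, limma adjusted p = 0.00691). The largest differences upward were at Cyb5a, the microsomal cytochrome b5, by 0.59 (SE 0.15, limma adjusted p = 0.0280), at the interval shared by the neighbours Stil and Tal1, by 0.56 (SE 0.17, limma adjusted p = 0.0669, not past the threshold), and at Scp2, a peroxisomal thiolase and sterol carrier gene, by 0.54 (SE 0.12, limma adjusted p = 0.0145). For H3K4me1 no gene of these lists passed for Ppara in limma, and at an unadjusted p under 0.05 there were 2 of 9 peroxisomal genes, 1 of 4 dehydrogenases and none of the other Cyp4 genes or electron donors.

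**Figure D5:**
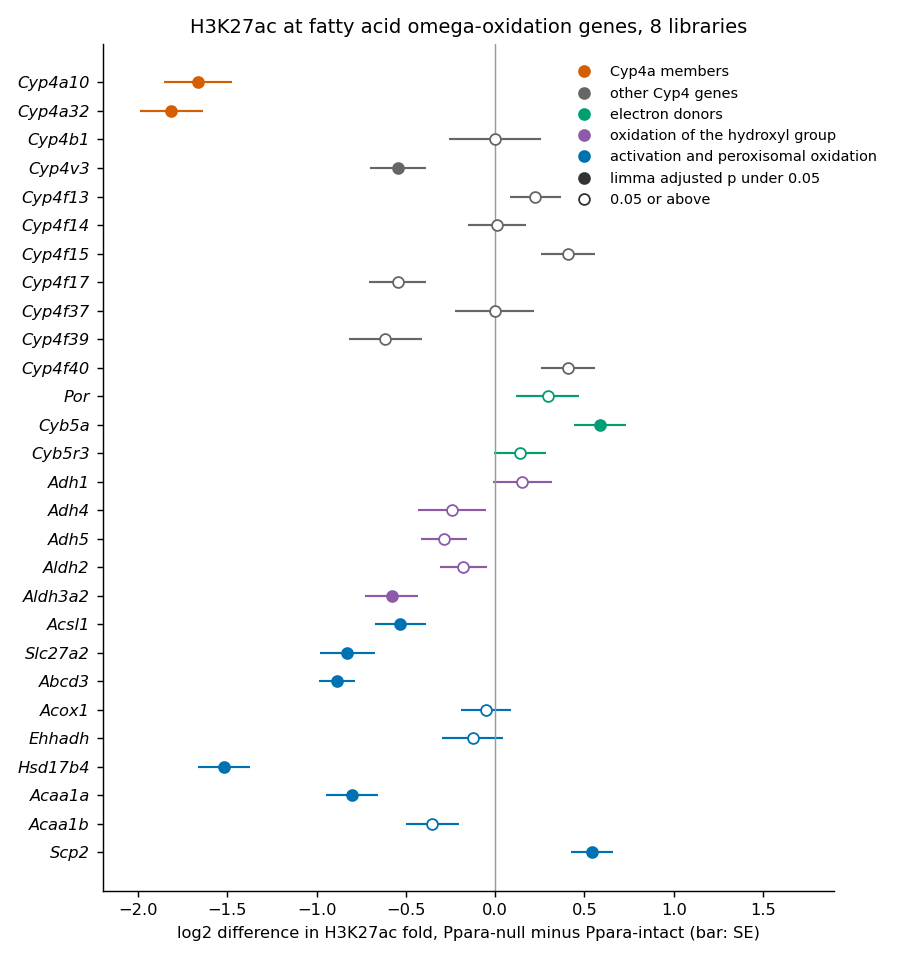
Log2 difference in H3K27ac fold (horizontal axis, Ppara-null minus Ppara-intact, points with SE bars) at the strongest interval called in all 8 libraries of each gene, coloured by role; filled points have limma adjusted p under 0.05. Cyp4a32 (−1.81) and Cyp4a10 (−1.67) lie furthest to the left, followed by Hsd17b4 (−1.52).

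No gene next to the family passed for Ppara. Of 15 protein-coding genes within 300 kb, 8 had an H3K27ac interval called in all 8 libraries, on 5 distinct intervals. In limma 0 passed in either direction, against 4.15% of all intervals lower and 3.19% higher. With so few intervals, 0 is near those shares and does not show that the change stops at the family. In limma 2 genes, Stil and Tal1 on their shared interval, had an unadjusted p under 0.05. For H3K27ac the pattern most like that of the strongest Cyp4a32 interval, by Pearson's r of log2 folds over the 8 libraries among 906 genes compared, was at Acadvl (r = 0.983), a mitochondrial acyl-CoA dehydrogenase, then at Smim4 (0.982), Clstn3 (0.965), Mtfr1 (0.961) and E2f8 (0.96). The libraries in these correlations share their genotype groups, and the values are a description.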

How the data were processed

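H3K27ac and H3K4me1 peaks (8 libraries each) and H3K9ac intervals (2 libraries) were used. Each library was placed by its title. The pooled inputs were not analysed here. Reads were processed with BWA and MACS2 2.1.0 on mm10, per the submitters' processing notes; the caller's threshold is not given in the sources used here. The deposited peak lists give, per library, a fold (a ratio made by the authors) and a −log10 q, whose lowest deposited value was 5.21. The second Ppara KO library for H3K27ac names another build in its peak names, but 100% of its peaks overlap the consensus, as in the other libraries. The authors' consensus intervals come from tables of the whole series, in which 8 further named blocks per table were not used.

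A library's value is its highest fold overlapping the interval by at least 1 base. Log2 folds, centred on each library's median, were fitted with limma 3.58.1 in R 4.3.3 over the 18281 H3K27ac or 19526 H3K4me1 intervals called in all 8 libraries, with 1 mean per genotype; adjusted p under 0.05 (Benjamini-Hochberg over all intervals) was the threshold. The script was tested on simulated data. Covered bases were compared by exact permutation tests. Gene bodies and the promoter come from RefSeq tables (GRCm38.p6). For other genes the interval of highest mean fold called in all 8 libraries was used. Every member was described, and intervals were named when called in all 8 libraries or in all 4 of one Ppara or Cpt2 state alone; others named were chosen after their values were seen, as were the Cpt2 KO against WT counts. The members and lists were chosen with earlier results of these data known.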

Additional observations from a re-analysis of the deposited data

How the results depend on the processing

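Both H3K27ac intervals, at Cyp4a10 and Cyp4a32, passed for Ppara and for DKO against Cpt2 KO under every alternative, leaving out any 1 library included. In those fits the lone library of a genotype is assumed to vary like the others. Setting uncalled folds to their library's lowest added Cyp4a14, whose Ppara KO values are then not measured, which gave 2 for Cpt2 KO against WT and 1 for Cpt2 state (0 otherwise), and no centring gave 1 for Cpt2 state, at Cyp4a32 (0.59 in log2 fold). The count for Ppara KO against WT fell from 2 to 0 with the smallest peak width as covariate and with the mean fold of overlapping peaks, and ranged from 0 to 2 over the libraries left out. With that covariate Cpt2 KO against WT fell from 1 to 0 and DKO against WT from 2 to 0. For H3K27ac the smallest peak widths did not overlap between the Cpt2 states, so the covariate and Cpt2 state cannot be told apart. Leaving out libraries gave 0 to 1 for Cpt2 KO against WT. For H3K4me1 it gave 0 to 1 for Ppara and 0 to 2 intervals separating Cpt2 state. H3K4me1 intervals separating Ppara state fell from 5 to 3 with the mean fold. The cause was not tested. Over all H3K27ac intervals, calls ranged from 469 (without Cpt2 KO replicate 2) to 2634 (filled) for Ppara (1342 in the report), from 17 to 2988 for Ppara KO against WT (1173), from 62 to 628 for DKO against Cpt2 KO (409), from 0 to 4300 for Cpt2 KO against WT (2469) and from 0 to 6050 for DKO against WT (3685). Each 0 and the 17 came with the width covariate. For Ppara in H3K4me1 they ranged from 0 to 1015 (without Cpt2 KO replicate 1), against 25. Without centring, 89% of H3K27ac calls for Cpt2 state were higher, against 39.9% with it. No called value reversed. With the replicate number as a block, 2 member intervals passed for Ppara in H3K27ac, and the block changed no other call at the members. The labels give no shared litter or day, and correlations of same-numbered deviations ran from −0.49 to 0.17. Depth in reads is unknown.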
